A study of Rattus norvegicus with 6 samples.

Results

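Dct, Tyrp1, Ttr and Rpe65 are genes of the retinal pigment epithelium and of melanin synthesis, and here they were followed in RNA captured from retinal ganglion cells of rats with raised eye pressure. The members were all probe sets whose platform annotation named 1 of these 4 genes and no other, with no filter on brightness. These are 4 of the 14217 genes that the array names by 1 symbol, with 5 of its 31042 probe sets other than Affymetrix controls: 1 each for Dct (1383394_at), Ttr (1367598_at) and Rpe65 (1369056_at), and 2 for Tyrp1 (1382819_at and 1385575_at). The arrays came from 3 adult male Brown Norway rats, and each eye of each rat gave 1 array, so there were 3 left-eye arrays (OS) and 3 right-eye arrays (OD). All 3 rats had hypertonic saline injected into an episcleral vein on 1 side, 10 days of raised pressure in that eye, and Fluorogold put into the superior colliculus to mark ganglion cells; 2000 cells per eye were taken by laser capture, and the captured RNA was amplified before labelling. The labels do not say which eye was injected, so OS was compared with OD within rats, no array could be called treated or fellow eye, and effects of pressure would partly cancel if the injected side varied.

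The pigment epithelium is a single sheet of pigmented cells behind the photoreceptors, while ganglion cells lie on the opposite, inner side of the retina. Melanin is made in melanosomes from tyrosine: tyrosinase (Tyr) starts the pathway, dopachrome tautomerase (Dct) and tyrosinase-related protein 1 (Tyrp1) act downstream of it, and Pmel builds the fibrils on which the pigment is laid down. Rpe65 is the isomerase of the visual cycle that remakes the light-sensitive form of vitamin A in the pigment epithelium. Ttr encodes transthyretin, a carrier of thyroxine and of the retinol-binding protein, made in the eye by the pigment epithelium and in the brain by the choroid plexus.

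A difference is given as OS minus OD on the log2(intensity + 16) scale, with the SD over the 3 rats (n = 3). The background limit of an array was taken from 27 probe sets for bacterial RNAs absent from the spike-in mix, at their 95th percentile, and lay between 399.6 and 546.6 on OS arrays and between 260.5 and 590.8 on OD arrays. Above it were 47.6%, 34.9% and 45.5% of probe sets on the OS arrays of rats 1 to 3. On their OD arrays the shares were 58.1%, 34.8% and 52.1%. The share was thus larger and the limit lower in OD in rats 1 and 3, but not in rat 2. Of the 12 ganglion cell markers, 12 were measured and 7 exceeded the limit on all 6 arrays. Of the 17 pigment epithelium markers, 16 were measured and 4 exceeded it on all 6 arrays (Rlbp1, Otx2, Timp3 and Enpp2). Each of the 5 member probe sets lay at or below the limit on at least 1 array, and 0 of the 5 exceeded it on all 6, where 11.3% of all probe sets did. In such samples fewer cells of a type and less RNA per cell cannot be told apart.

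The melanin synthesis genes Dct and Tyrp1 shared letters ahead of their start sites, and the upstream windows are shown for these letters. Over the 6 arrays Dct correlated at r = 0.901 with 1382819_at of Tyrp1 but at -0.503 with 1385575_at. The capitals mark CATGTG, the core of the M-box bound by the pigment cell factor MITF, and TAATCC, the core bound by OTX2, each searched on both strands (reverse complements CACATG and GGATTA). Both windows hold the 250 bases before the annotated start, 5′ to 3′ on the gene's strand, from RefSeq on build GRCr8.
Dct, chr15:101508030-101508279, minus strand: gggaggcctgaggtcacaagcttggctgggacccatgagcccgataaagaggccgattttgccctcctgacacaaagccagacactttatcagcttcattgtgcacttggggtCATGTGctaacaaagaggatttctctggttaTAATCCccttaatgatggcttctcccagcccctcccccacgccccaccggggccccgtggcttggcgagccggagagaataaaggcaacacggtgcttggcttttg
Tyrp1, chr5:100326875-100327124, plus strand: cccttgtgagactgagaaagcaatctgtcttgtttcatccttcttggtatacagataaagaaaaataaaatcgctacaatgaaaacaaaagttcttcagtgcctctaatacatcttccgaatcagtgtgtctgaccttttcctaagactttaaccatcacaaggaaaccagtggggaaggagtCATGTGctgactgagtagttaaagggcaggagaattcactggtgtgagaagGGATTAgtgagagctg
Counting the base just before the start as -1, CATGTG lay at bases -137 to -132 of Dct and -67 to -62 of Tyrp1. TAATCC lay at -106 to -101 of Dct, and its reverse complement at -16 to -11 of Tyrp1. Around CATGTG the windows shared an unbroken run of 10 bases, gtCATGTGct, which 0.0568% of the 33469 RefSeq promoter windows held on either strand. CATGTG alone was in 12.1% of the windows, TAATCC in 6.34%, and both together in 0.858%. The Rpe65 window held GGATTA at -47 to -42 and no CATGTG, and the Ttr window held neither. These are matches of letters in a window and not measured binding sites. The 10-base run was read off these windows, so its share does not measure how unusual the sharing is.

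Dct had intensities of 216.8, 552.5 and 1039.9 on the OS arrays of rats 1, 2 and 3, against 749.9, 1714.1 and 6062.3 on their OD arrays. In each rat OS was the lower eye, but the ranges overlapped because OS of rat 3 was above OD of rat 1. The difference was -1.95 ± 0.50 (n = 3 rats, limma adjusted p = 0.390), lower in OS in 3 of 3 rats, and did not pass the threshold of 0.05; its 95% interval in the fit ran from -3.17 to -0.73 before any adjustment for multiple tests. Only the OS array of rat 1 was at or below its limit, and the OS value of rat 2 was just above it, at 1.01 times the limit. The enzyme it encodes rearranges dopachrome into a carboxylated melanin precursor.

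The brighter probe set of Tyrp1, 1382819_at, had intensities of 43.1, 643.7 and 781.6 on OS arrays and 1150.2, 515.3 and 10420.0 on OD arrays of rats 1 to 3. OS was far lower than OD in rats 1 and 3, and in rat 2 the eyes lay close together with OS a little higher. The difference was -4.30 in rat 1, 0.31 in rat 2 and -3.71 in rat 3, with a mean of -2.57 ± 2.51 (limma adjusted p = 0.213). It did not pass, and it turned on rat 2: without that rat it was -4.01 with a limma adjusted p of 0.000194, in a fit of 2 rats that called 114 probe sets, while without rat 1 it was -1.70 (adjusted p = 0.962) and without rat 3 -1.995 (adjusted p = 0.960). The OS value of rat 1 and the OD value of rat 2 lay at or below the limits of their arrays.

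The dimmer probe set of Tyrp1, 1385575_at, went the other way. It had 617.2, 529.2 and 500.3 on OS arrays and 123.3, 268.1 and 225.7 on OD arrays, so the 3 OS values lay above the 3 OD values. Of the 5 member probe sets, 1 thus had its OS arrays above its OD arrays without overlap, beside 5.36% of all probe sets, and 0 had them below, beside 4.66%. All 3 OD values were at or below the limit, and the OS value of rat 2 was too, so the size of this difference is not settled and no fold is given. The measured difference of 1.41 ± 0.68 had a limma adjusted p of 0.869. Within rats, the difference of 1382819_at minus that of 1385575_at was -6.49, -0.63 and -4.80, with a mean of -3.97 ± 3.02. It was negative in 3 of 3 rats (exact permutation test over sign flips, two-sided, p = 0.25, which is the lowest value possible with 3 rats), so the probe sets of Tyrp1 disagreed in direction in rats 1 and 3, and the Tyrp1 difference depends on which of them is read.

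Ttr had 1170.1, 1107.8 and 380.2 on OS arrays, against 3151.0, 2280.4 and 607.2 on OD arrays. OS was lower in each rat, by differences of -1.42, -1.03 and -0.65, but rat 3 was dim in both eyes, so the groups overlapped. The mean was -1.03 ± 0.38 (limma adjusted p = 0.831), with a 95% interval from -2.20 to 0.13. The OS array of rat 3 lay at or below the limit. Its spread between rats was the smallest of the 5 probe sets.

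Rpe65 had 376.5, 820.5 and 805.5 on OS arrays and 2484.6, 565.1 and 841.5 on OD arrays. A single array, OD of rat 1, stood high, and the other 5 values lay between 376.5 and 841.5. The difference was -2.67 in rat 1, 0.53 in rat 2 and -0.06 in rat 3, with a mean of -0.74 ± 1.70 (limma adjusted p = 0.907, 95% interval -2.08 to 0.61). Without rat 1 its sign turned, to 0.23. The OS array of rat 1 and the OD array of rat 2 lay at or below their limits.

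**Figure D1:**
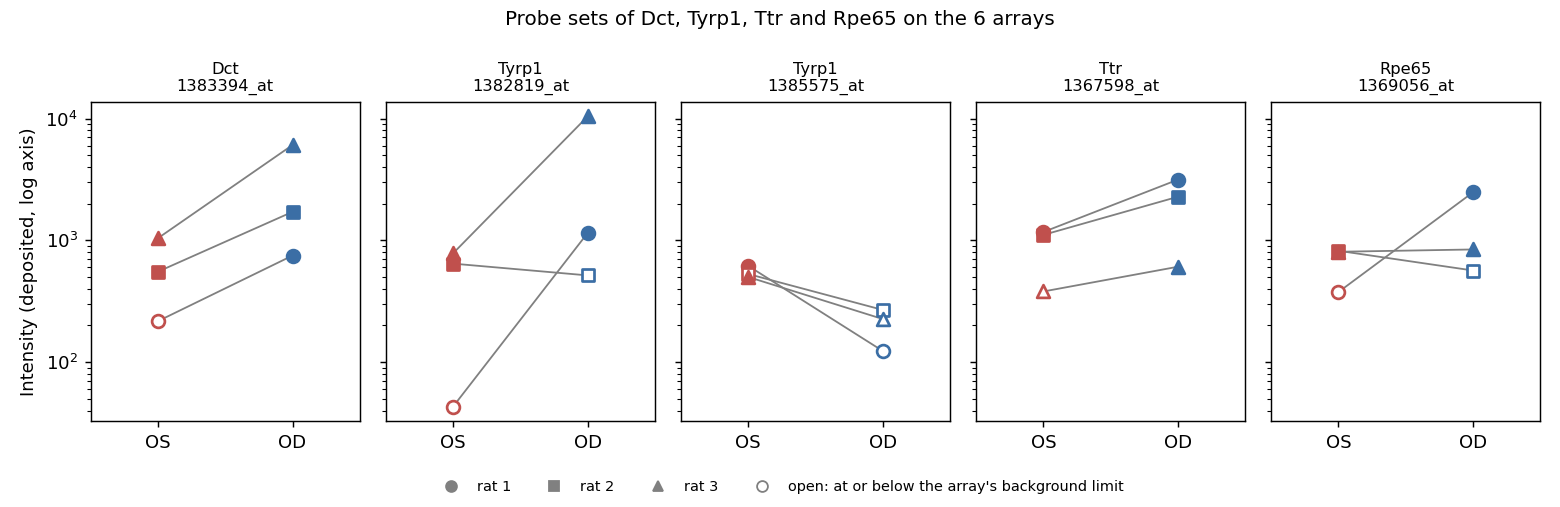
Deposited intensity (log axis) of each member probe set on the OS and OD arrays, with a line joining the eyes of each rat; open symbols lie at or below the background limit of their array. Dct and Ttr slope the same way in all 3 rats, the probe sets of Tyrp1 slope in opposite directions in rats 1 and 3, and Rpe65 is high on the OD array of rat 1 only, at 2484.6.

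Across the members, 0 of 5 probe sets passed the threshold in the limma fit, beside 0.0290% of all probe sets (9 of 31042, of which 9 had their lower value in OS and 0 their higher). The mean was lower in OS for 4 of 5, beside 48.0% of all probe sets. With an unadjusted p under 0.05, 2 of 5 were lower in OS (Dct and 1382819_at of Tyrp1), beside 3.35% of all probe sets, and 0 of 5 were higher, beside 2.91%. Lower in OS in 3 of 3 rats were 2 of 5, Dct and Ttr, beside 12.2% of all probe sets, and higher in 3 of 3 rats was 1 of 5, 1385575_at, beside 14.9%. The median difference over all probe sets was 0.05. With 5 probe sets chosen with earlier results known, these shares describe the members and test nothing.

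**Figure D2:**
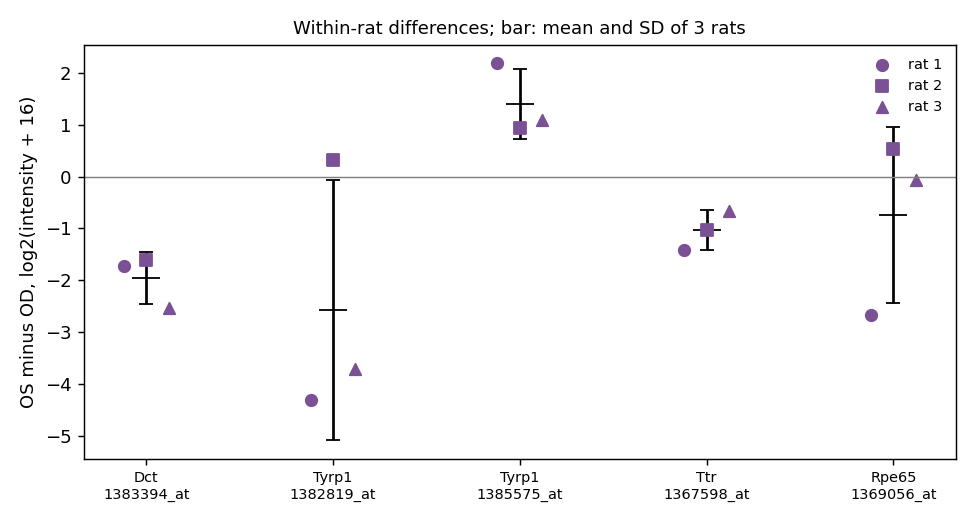
OS minus OD on the log2(intensity + 16) scale for each member probe set and rat, with the mean and SD of 3 rats. Dct (-1.95) and Ttr (-1.03) keep their sign in 3 of 3 rats, while 1382819_at of Tyrp1 and Rpe65 each have rat 2 on the other side of 0.

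The members did not share a profile over the arrays. Dct and 1382819_at of Tyrp1 were both brightest on the OD array of rat 3, at 3.54 and 9.06 times their next highest arrays, and the r between them, given above, is over 6 arrays that come from 3 rats and share animals. Ttr and Rpe65 were brightest on the OD array of rat 1, at 1.38 and 2.95 times the next, and correlated with each other at r = 0.350. Dct correlated at -0.254 with Ttr and 0.193 with Rpe65, and the 2 Tyrp1 probe sets at -0.585 with each other. These r values are on log2(intensity + 16). The OD array of rat 3 was the brightest of the 6 for 16.5% of all probe sets, and the OD array of rat 1 for 9.97%.

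Among other melanosome and melanin synthesis genes, 11 of 16 listed were measured, and 0 passed. At an unadjusted p under 0.05 there were 2, beside 3.35% of all probe sets lower and 2.91% higher. These shares hold for the same counts of the lists below. Their mean was lower in OS for 8 of the 11 genes and higher for 3 (48.0% of all probe sets were lower). In 3 of 3 rats 4 were lower and 0 higher, beside 12.2% and 14.9% of all probe sets. The median difference was -1.23, with rat medians of -0.95, -1.90 and -0.78. Pmel had 78.9, 765.7 and 1249.8 on OS arrays and 865.7, 561.2 and 17031.4 on OD arrays. This profile was that of 1382819_at of Tyrp1 (r = 0.983 over the 6 arrays), with OS below OD in rats 1 and 3 but not in rat 2; the difference was -2.18 ± 2.28 (limma adjusted p = 0.330), and it was -1.66 without rat 1 (adjusted p = 0.962), -3.48 without rat 2 (adjusted p = 0.000313) and -1.39 without rat 3 (adjusted p = 0.960). As for 1382819_at of Tyrp1, the Pmel values on OS of rat 1 and OD of rat 2 lay at or below the limits of their arrays. Mlana, a melanosome protein gene, exceeded the limit on 1 array, OD of rat 3, at 1134.2 (difference -1.96 ± 1.83, adjusted p = 0.852). Atp7a, a copper transporter gene, differed by -1.97 ± 3.17 (adjusted p = 0.756), and its 3 probe sets disagreed in sign.

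Tyr, described after its values were seen, did not share this profile. It had 371.1, 885.4 and 540.8 on OS arrays and 83.9, 847.3 and 688.4 on OD arrays, and its r with Dct was 0.307. The difference was 1.95, 0.06 and -0.34 in rats 1 to 3, with a mean of 0.56 ± 1.22. Both values of rat 1 lay at or below the limits of their arrays, so the size and sign of this mean are not settled. The OD array of rat 3 held the highest value of 5 of the 11 genes, beside 16.5% of all probe sets. These were Pmel, Mlana, Gpr143, Hps1 and Hps4, named after their values were seen. Mlana and Gpr143 exceeded the limit on that array only, and Hps4 was there 1.25 times its next highest value. An r above 0.7 with Dct was reached by 4 of the 11 genes, where 7.20% of all probe sets reached it, and an r above 0.7 with 1382819_at of Tyrp1 by 4, where 7.64% did.

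Of 10 regulators of pigment cells, 7 were measured and 0 passed (2 at an unadjusted p under 0.05). The median difference was -0.38, with 4 lower and 3 higher in OS by mean. Mitf, the factor that drives melanin synthesis genes, had 94.6, 98.9 and 67.2 on OS arrays, all at or below the limit, and 537.5, 525.6 and 1463.8 on OD arrays, of which 2 exceeded it (rats 1 and 3). OS was lower in 3 of 3 rats (measured difference -2.90 ± 1.08, limma adjusted p = 0.682). Its other probe set differed by -0.11. Pax6 is a transcription factor gene of ganglion and amacrine cells as well as of pigment cells. It had 1945.5, 2997.1 and 3174.6 on OS arrays and 7334.7, 5628.0 and 11883.2 on OD arrays. Its OS arrays lay below without overlap, as for 4.66% of all probe sets (-1.57 ± 0.58, adjusted p = 0.207). Tfec, a relative of Mitf, had 751.4, 198.1 and 130.5 on OS arrays and 241.4, 60.4 and 155.0 on OD arrays (measured difference 0.95 ± 1.01, adjusted p = 0.940). Only its OS value of rat 1 exceeded the limit. Otx2, also described after its values were seen, exceeded the limit on all 6 arrays, with 11571.2, 13282.0 and 59255.0 on OS arrays and 27484.6, 7781.3 and 26526.1 on OD arrays. Its highest value was on the OS and not the OD array of rat 3, unlike Dct and 1382819_at of Tyrp1. The difference was 0.23, and 1.29 for its other probe set.

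**Figure D3:**
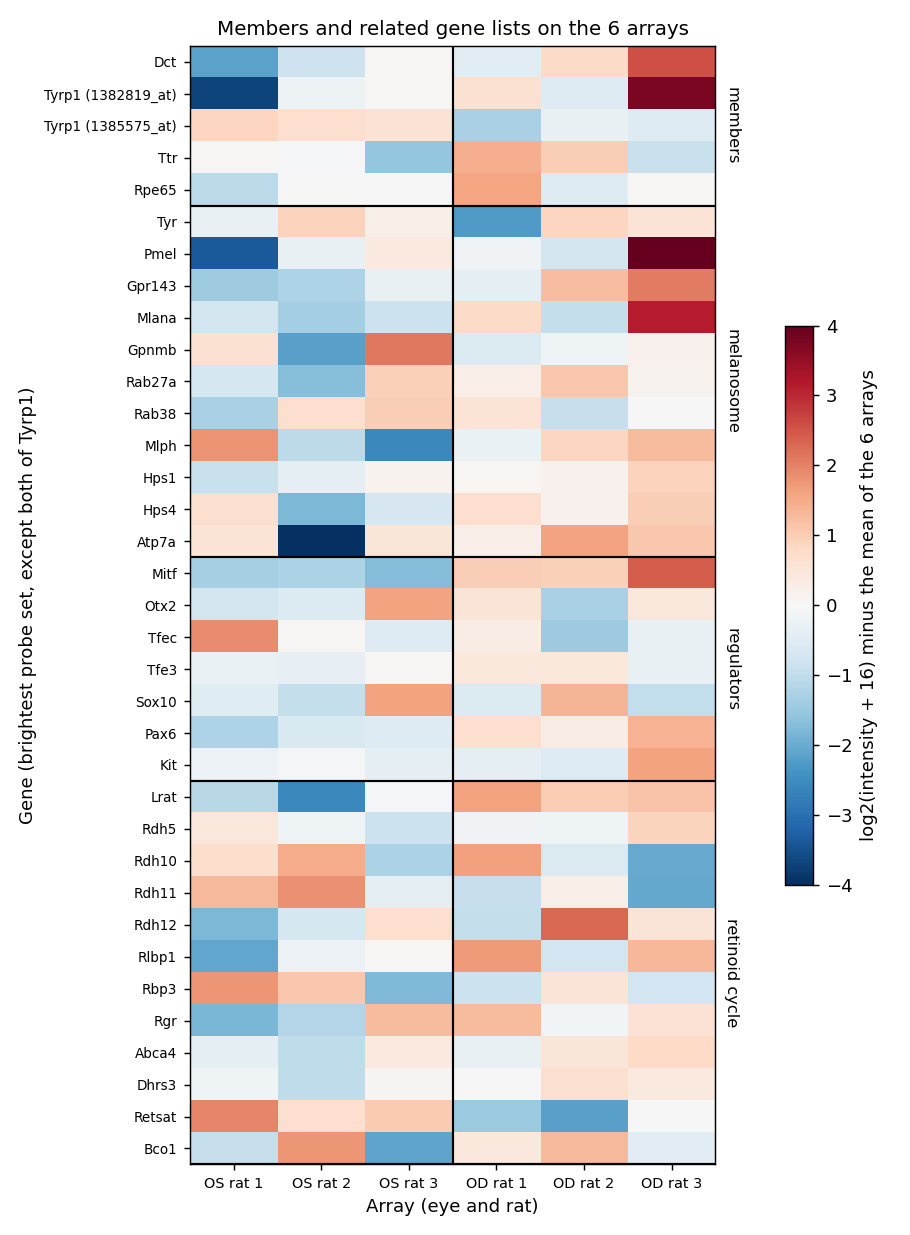
Each gene's log2(intensity + 16) minus its mean over the 6 arrays, with OS arrays left and OD arrays right, for the members and 3 related lists (brightest probe set of a gene, both probe sets of Tyrp1). Dct, 1382819_at of Tyrp1, Pmel, Mlana and Mitf are darkest red on the OD array of rat 3, where Tyr, Ttr and Rpe65 are not.

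The visual cycle genes around Rpe65 gave 12 measured of 14 listed, 0 passed (3 at an unadjusted p under 0.05), and the median difference was -0.68, with rat medians of -0.52, 0.24 and -0.34. Rlbp1, which encodes a retinal-binding protein of pigment epithelium and Mueller glia, had 559.8, 2073.9 and 2509.7 on OS arrays and 7967.1, 1409.7 and 6147.6 on OD arrays (-1.51 ± 2.18, limma adjusted p = 0.565). It was -0.37 without rat 1 (adjusted p = 0.979), -2.54 without rat 2 (adjusted p = 0.00211) and -1.62 without rat 3 (adjusted p = 0.921). Like Rpe65, it was highest on the OD array of rat 1 and reversed in rat 2. Lrat, the enzyme that esterifies retinol and supplies the substrate of Rpe65, was at or below the limit on the 3 OS arrays, with 80.3, 18.5 and 178.0, against 612.6, 405.3 and 444.6 on OD arrays, of which those of rats 1 and 3 exceeded it (measured difference -2.52 ± 1.19, adjusted p = 0.789). Retsat, a retinol saturase gene, had 847.2, 340.1 and 447.1 on OS arrays and 63.0, 34.1 and 204.3 on OD arrays, with all 3 OD values and the OS value of rat 2 at or below the limit (measured difference 2.45 ± 1.23, adjusted p = 0.789).

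For the transport functions of Ttr, 9 of 10 genes were measured, 0 passed (0 also at an unadjusted p under 0.05) and the median difference was -0.19. Rbp4, the retinol carrier that transthyretin binds in blood, had 531.9, 280.4 and 1020.9 on OS arrays and 305.5, 325.0 and 26.0 on OD arrays. The measured differences of 0.77, -0.20 and 4.63 in rats 1 to 3 did not follow Ttr (mean 1.73 ± 2.55, limma adjusted p = 0.858). Both values of rat 2 and the OD value of rat 3 lay at or below the limit, so how far Rbp4 departed from Ttr is not settled. Alb, the other plasma carrier of thyroxine in the list, had 34.5, 105.5 and 78.6 on OS arrays, all at or below the limit. On OD arrays it had 347.8, 613.8 and 230.3, of which 2 exceeded the limit (measured difference -2.20 ± 0.75, adjusted p = 0.831). Its other probe set differed by -0.76. Thrb, a thyroid hormone receptor gene, differed by 0.62 ± 1.77 (adjusted p = 0.879), and its 4 probe sets disagreed in sign.

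The genes whose profiles were most like those of the members, by Pearson's r over the 6 arrays among 10435 brighter probe sets with 1 symbol, were not pigment genes. For Dct they were Htt, Pals2 and Prr12 (r = 0.983, 0.982 and 0.980). For 1382819_at of Tyrp1 they were Fubp3, Polr1c and Setdb1 (r = 0.997, 0.993 and 0.991). For Ttr they were Phf21a (r = 0.990), Nfatc2 (0.985) and Add1 (0.980), and for Rpe65 Slc35f6 (r = 0.978), Rhobtb1 (0.971) and Nlk (0.964). Of the 10435 candidates, r exceeded 0.9 for 110 with Dct, 169 with 1382819_at, 38 with Ttr and 16 with Rpe65. These are small shares of the candidates, but an r above 0.9 was not particular to pigment genes.

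Markers of the cells that could carry these genes are given beside them. For pigment epithelium, OS had the lower mean in 13 of 16 measured genes and the higher in 3, beside 48.0% lower among all probe sets, with a median of -0.75 and rat medians of -1.69, 0.02 and -0.91. In 3 of 3 rats 4 were lower and 1 higher, beside 12.2% and 14.9% of all probe sets. Enpp2, a secreted phospholipase gene also expressed by the choroid plexus, had 672.8, 596.8 and 631.2 on OS arrays and 1314.6, 1367.4 and 3384.6 on OD arrays. Its OS arrays lay below without overlap, as for 4.66% of all probe sets (-1.51 ± 0.78, limma adjusted p = 0.701). The 1 higher gene, named after its values were seen, was Serpinf1 (1.35 ± 0.59, limma adjusted p = 0.869). The summed intensity of the list ran from 17484 to 68597 on OS arrays and from 15500 to 46798 on OD arrays, mostly Otx2, which photoreceptors and bipolar cells also express. The list holds Rpe65, a member. Without Otx2 and Rpe65, a sum taken after the values were seen, it was 5536, 7510 and 8537 on OS arrays and 16829, 7154 and 18725 on OD arrays of rats 1 to 3. The OD arrays of rats 1 and 3 thus stood above the other 4. Rlbp1, which Mueller glia also express, was still in this sum, at 7967.1 and 6147.6 on those 2 arrays. It had 559.8 to 2509.7 on OS arrays and 1409.7 on the OD array of rat 2. The sum is therefore not of pigment epithelium signal alone. Dct and 1382819_at of Tyrp1 were highest on the OD array of rat 3 and Rpe65 and Ttr on that of rat 1, while the Ttr value on the OD array of rat 3, 607.2, was its second lowest.

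Of 6 melanocyte markers 3 were measured (Mlana, Kit and Sox10), 0 of them exceeded the limit on all 6 arrays, and the summed intensity was 210.3 to 665.0 in OS and 389.2 to 1561.8 in OD, with a median difference of -0.46. Markers of ciliary and choroid plexus type epithelium, which also makes transthyretin, had a median of 0.56 over 6 genes, with 0 above the limit on all 6 arrays and a sum of 2018 to 3368 in OS and 1199 to 2372 in OD. Choroid vessel and stroma markers had a median of 0.46 over 8 genes and a sum of 4312 to 12777 in OS and 4794 to 5170 in OD. Photoreceptor markers had 0.26 over 14 genes (sum 19655 to 32638 in OS and 15661 to 46717 in OD), and Mueller glia markers 0.26 over 8 (4818 to 14812 in OS and 4918 to 10708 in OD). The mean was higher in OS for 5 of 6 ciliary and choroid plexus type genes and 7 of 8 choroid vessel and stroma genes. For Mueller glia it was 6 of 8, for photoreceptors 9 of 14 and for melanocytes 1 of 3. Among all probe sets 48.0% were lower. By limma 0 genes of these 6 lists passed; at an unadjusted p under 0.05 there were 4 for pigment epithelium, 3 for photoreceptors, 2 for Mueller glia and 0 for the other 3 lists.

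Ganglion cell markers, of the labelled cell type, had a lower mean in OS for 10 of 12 genes (48.0% of all probe sets were lower). In 3 of 3 rats 7 were lower and 0 higher, beside 12.2% and 14.9% of all probe sets. Their median was -0.71, and their summed intensity was 12896 to 18315 in OS, below the 22978 to 31742 in OD. By limma 0 of 12 passed, with 4 at an unadjusted p under 0.05. The 3′ to 5′ ratio of the beta-actin control exceeded that of OD by 1.32 ± 0.52 (log2) on the OS arrays, in 3 of 3 rats (exact permutation p = 0.25). That of the GAPDH control did not keep its sign, with 0.29, 0.90 and -2.58 in rats 1 to 3. Its mean was -0.46 ± 1.86 (exact permutation p = 1), so both controls were higher in OS in rats 1 and 2 but disagreed in rat 3. The GAPDH ratio (log2) was 4.41 on the OD array of rat 3 and between 0.67 and 1.83 on the other arrays. The beta-actin ratio of that OD array was 1.94, against 3.36 on the OS array of rat 3. Dct, the brighter probe set of Tyrp1, Pmel, Mlana and Mitf had their highest values on the same OD array. The part that tissue captured with the cells or RNA quality had in the differences of Dct, Tyrp1, Ttr and Rpe65 was not tested.

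**Figure D4:**
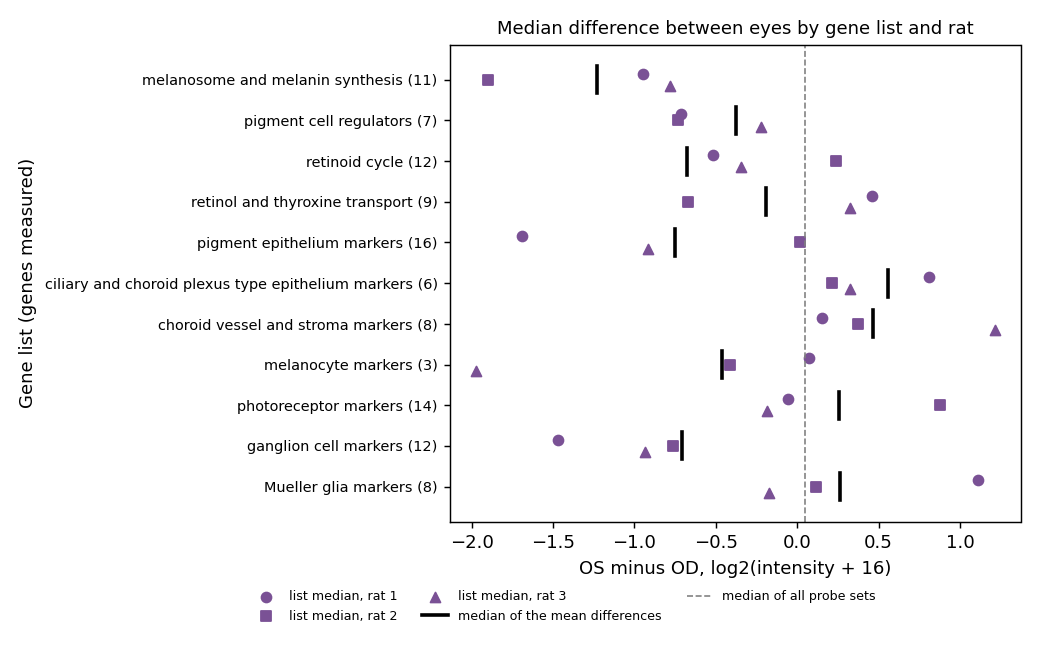
Median OS minus OD on the log2(intensity + 16) scale of each gene list, by rat (symbols) and for the mean differences (bars), with the number of genes measured and, dashed, the median of all probe sets (0.05). The melanosome, regulator, pigment epithelium and ganglion cell lists lie left of the dashed line in all 3 rats. The pigment epithelium list does so only just in rat 2, at 0.02.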

How the data were processed

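The arrays were 1-colour Affymetrix GeneChips, 1 per eye, of RNA isolated with PicoPure and amplified with RiboAmp HS, per the labels' protocols. The deposited intensity values are linear, 1 per probe set, and the submitters' processing notes name GCOS as the software; how it was set is not given in the labels read here. The mean trimmed by 2% at each end was 500.1 on all 6 arrays, so arrays were read as already scaled, and were not normalized further. That scaling hides any difference in total RNA between eyes.

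Of 31099 probe sets, 57 controls were left out. Of the other 31042, the platform annotation gave 1 symbol for 20826, several for 436 and none for 9780, and only probe sets with 1 symbol were named. An offset of 16 was added before log2, which understates the change of dim probe sets. OS minus OD was tested over all 31042 with limma 3.58.1 in R 4.3.3 (rat as a fixed block, intensity trend, two-sided, Benjamini-Hochberg adjustment, threshold 0.05); every adjusted p is from this fit unless stated. Its prior degrees of freedom were 71.03, against 2 residual, so p-values and 95% intervals draw mainly on the variance shared by all probe sets, not on the SD of 3 rats. Eyes are paired because the titles give the same rat number; deviations from the eye means correlated within rats 1, 2 and 3 at 0.0458, 0.0581 and 0.191 over probe sets. The number of arrays limits the precision.

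No fold is given where a group lies at or below the background limit on all its arrays. Lists used the brightest probe set of a gene and were described, not tested. Members and lists were chosen with earlier results of these data known. Named were the members, the 3 genes most similar to each, and genes stated as chosen after their values were seen. Also named were up to 3 genes with the smallest p of each pigment list, pigment epithelium markers included. Of the other cell type lists, summaries are given. Promoter windows came from RefSeq on GRCr8. No protein sequences were used here.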

Additional observations from a re-analysis of the deposited data

Results flagged for a closer look

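A further probe set, 1371237_a_at, was left out of the members because its annotation gives 3 symbols, Ttr among them, so its signal cannot be given to any of these genes. It was bright on all 6 arrays, with a lowest intensity of 2317.1 and a highest of 7787.2, above the highest background limit of 590.8. Its OS minus OD was 0.50, -0.36 and 1.11 in rats 1 to 3, a mean of 0.42 ± 0.74 (limma adjusted p = 0.924). The probe set of Ttr alone was lower in OS in the same 3 rats.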

How the results depend on the processing

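All alternatives were planned. Over 73 values of the 5 member probe sets under up to 15 alternatives, 72 kept their direction and 1 passed the threshold. The exceptions were Rpe65, which turned to 0.23 without rat 1, and 1382819_at of Tyrp1, which passed without rat 2 at -4.01 (limma adjusted p = 0.000194). With 1 rat left out, differences ranged from -2.12 to -1.66 for Dct, -4.01 to -1.70 for 1382819_at, 1.02 to 1.64 for 1385575_at, -1.22 to -0.84 for Ttr and -1.37 to 0.23 for Rpe65. Adjusted p over all alternatives ran from 0.222 to 0.988 for Dct and from 0.620 to 0.988 for Ttr. Without the replicate block, which ignores that eyes share a rat, each of the 5 had an adjusted p of 0.988. 1385575_at dropped out with the filter at the 75th percentile of brightness and among those above the background limit on at least 3 arrays. The mean difference between the Tyrp1 probe sets was -4.19 to -3.50 with other offsets and -3.83 after quantile normalization.

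The 9 calls of the limma fit became 0 when rat was left out as a replicate block or taken as a random one, 0 without the intensity trend, 0 from the 75th percentile up, 2 from the median up and above the limit on at least 3 arrays, 4 with an offset of 1, 23 with an offset of 64, and 8 to 114 with 1 rat left out, the highest without rat 2. The count higher in OS, 0 in the fit (904 at an unadjusted p under 0.05), was 2 after quantile normalization, 3 with an offset of 64, 2 with a robust prior variance and 4 to 7 with 1 rat left out. Of 173 list medians, 167 moved by less than 1 SD of the rat medians, a wide margin within which some changed sign: transport, -0.19 in the fit, was 0.42 from the 75th percentile up and 0.05 without rat 2, and photoreceptor markers, 0.26, were -0.14 without rat 2. Pigment epithelium markers ranged from -1.17 to -0.34 with 1 rat left out. The larger moves were ciliary and choroid plexus type markers, -0.13 from the median of brightness up and above the limit on at least 3 arrays (2 genes left), and some with 1 rat left out, where medians ranged from 0.21 to 0.54 for that list, -0.0062 to 1.31 for Mueller glia, -1.13 to -0.73 for ganglion cell markers and -0.72 to -0.20 for pigment cell regulators. Fewer probe sets tested or fewer rats are part of the filters and of leaving out a rat; for the others the cause was not tested. Values near the background limit leave the size of most member differences uncertain.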
